A study of Mus musculus with 2 samples.

Results

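The cells described here are microglia that carried no detected transcript of a set of cell-cycle genes and very little chemokine and inflammatory cytokine RNA. They numbered 233 of the 5696 cell barcodes in 2 single-cell libraries, 127 in the control library and 106 in the library from mice with a microglial deletion of Hk2. A barcode qualified with 1000 genes or more, no more than 5% mitochondrial UMIs (unique molecular identifiers, each counting 1 captured RNA molecule), UMIs of at least 3 of the 4 microglial genes P2ry12, Tmem119, Siglech and Fcrls, and no UMI of Mki67, Top2a, Cdk1, Birc5, Ube2c, Mcm5, Mcm6, Tyms, Rrm2 or Pclaf. Of the 776 barcodes left over both libraries, the 30% with the lowest share of UMIs in Ccl2, Ccl3, Ccl4, Ccl7, Tnf and Il1b together were taken. The members were thus chosen by the measured levels of these 20 genes, so their values are given only as a description. The cells are called chemokine-low below.

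Microglia are the resident macrophages of the brain. They survey the tissue with motile processes and sense nucleotides through purinergic receptors such as P2RY12. They depend on CSF1 receptor signalling and TGF-beta for survival and identity, and they can refill the brain by division after most of them have been removed. When Toll-like receptors, cytokine receptors or tissue handling activate NF-kB and AP-1, they make the chemokines CCL2, CCL3 and CCL4, which attract leukocytes, together with TNF and interleukin-1. Interferons act through their receptors and JAK kinases on a separate set of antiviral and antigen-presentation genes.

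The study compared microglia repopulating the mouse brain at day 3, with and without Hk2, the hexokinase that is induced in many activated and dividing cells and catalyses the entry of glucose into glycolysis. Both libraries came from C57BL/6 mouse brain and from a sort for high CD11b and low CD45, and both were made with the 10x Chromium 3' v3 kit. The control library was from Hk2 fl/fl mice. The other was from Hk2 cKO mice, which carry Cx3cr1CreER and Hk2 fl/fl, so that Cre is expressed from the Cx3cr1 locus, in microglia and in other Cx3cr1-expressing macrophages and monocytes, and needs tamoxifen to act. Tamoxifen was given at 100 µg on 2 consecutive days at postnatal day 1 to 2 or as indicated. Whether the fl/fl mice received it, how microglia were depleted, the age at sorting, the floxed exons and the number of animals per library are not given in the sources used here. Each genotype was 1 library, so differences between genotypes could not be checked against replicates and were not tested.

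The deposited counts summed to 37476201 UMIs in the fl/fl library (3089 barcodes) and 32896996 in the cKO library (2607 barcodes). Barcodes that passed the gene and mitochondrial limits numbered 2428 and 1946, and 2228 and 1778 of them held at least 3 of the 4 microglial genes. The 2 libraries shared 2 barcodes, of which 0 were in chemokine-low cells. S100a8, a neutrophil gene that microglia should lack, gave a UMI in 10 of 127 and 12 of 106 chemokine-low cells. This gauges the free RNA of S100a8 in the droplets, and other genes can differ in it. After every cell was thinned to 3000 UMIs the share of cells with S100a8 was 3.48% in fl/fl and 6.67% in cKO.

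The absence of the 10 cycle genes left 393 fl/fl and 383 cKO cells, which is 17.6% (95% Clopper-Pearson interval 16.1 to 19.3) and 21.5% (19.7 to 23.5) of the cells positive for the microglial genes. Chemokine-low cells made up 127 of 393 in fl/fl, or 32.3% (27.7 to 37.2), and 106 of 383 in cKO, or 27.7% (23.3 to 32.4). The 2 intervals overlap. At the other end, the 30% with the highest share of the 6 rule genes, called chemokine-high below, held 91 fl/fl and 142 cKO cells, 23.2% (19.1 to 27.6) and 37.1% (32.2 to 42.1) of the eligible cells. The remaining 40% are called middle cells, 175 in fl/fl and 135 in cKO. All intervals in the text cover counting error only.

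The rule genes took a median of 0.0827% of a chemokine-low cell's UMIs in fl/fl and 0.0826% in cKO, against 1.57% and 1.69% in chemokine-high cells. No UMI of the 6 genes was found in 8 of the 127 fl/fl cells (6.30%) and 13 of the 106 cKO cells (12.3%). Of these, 2 in fl/fl and 9 in cKO were cells with little of the nuclear RNA Malat1, described below. The threshold ran through a continuous distribution: the last cell inside had 40 rule-gene UMIs of 18805 (0.213%) and the first outside had 36 of 16822 (0.214%). The plot of rule-gene shares shows no gap at that point. Most chemokine-low cells therefore still gave some chemokine UMIs. A Ccl2 UMI was found in 77 of 127 and 70 of 106 cells and a Ccl4 UMI in 70 and 60. The part of free RNA in these was not tested. Ccl4, a macrophage attractant, stood at 189 counts per 1000000 UMIs of the summed cells (CPM) in fl/fl and 216 in cKO, against 8665 and 9079 CPM in chemokine-high cells. Ccl2, the ligand of the monocyte receptor CCR2, stood at 272 and 338 CPM, against 3519 and 4433 CPM. Il1b, which encodes the fever-inducing cytokine interleukin-1 beta, stood at 39.4 and 18.4 CPM, against 522 and 934 CPM.

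**Figure D1:**
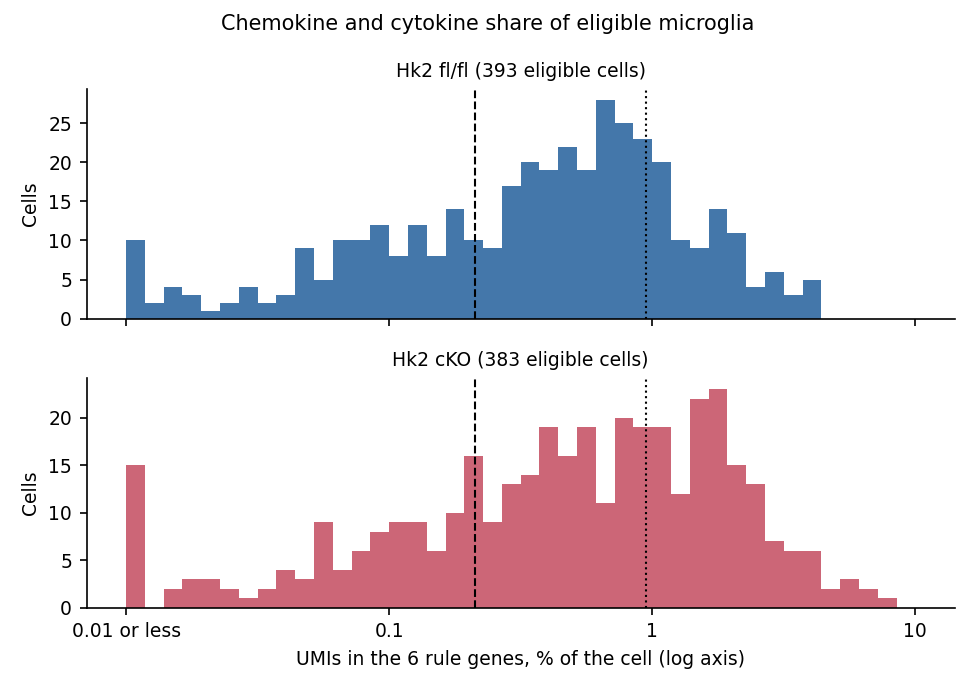
Histograms of the share of UMIs in the 6 rule genes (x axis, percent of the cell's UMIs, log scale, cells at 0.01% or less drawn at 0.01) for the 393 eligible fl/fl and 383 eligible cKO cells (y axis, number of cells). The dashed line marks the highest chemokine-low cell at 0.213% and the dotted line the lowest chemokine-high cell at 0.947%, and neither falls in a gap.

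Of the 4 genes that define microglia, 3 were present in nearly every cell. P2ry12, the ADP receptor of resting microglia, was at 860 CPM in fl/fl and 921 in cKO and had a UMI in 125 and 103 cells. Tmem119 was at 905 and 1160.4 CPM, the lectin gene Siglech at 1177 and 1514 CPM, and the Fc receptor-like gene Fcrls at 495 and 613 CPM. Fcrls was seen less often, in 91 of 127 and 82 of 106 cells.

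The word quiescent does not follow from these data without limits. The cells were shallow, with a median of 6765 UMIs and 2476 genes in fl/fl and 8466.5 UMIs and 2824.5 genes in cKO, against 12322 and 14555 UMIs in the cells that held a cycle-gene UMI. When cells were first thinned to 3000 UMIs, 1666 cells were without a cycle-gene UMI in place of 776, and the lowest 30% were 284 fl/fl and 239 cKO cells, among them 210 of the 233. Other replication and mitosis genes remained detected. Pcna, the sliding clamp of DNA polymerase, had 84 and 100 UMIs (89.5 and 108 CPM) and the centromere histone Cenpa 35 and 12 UMIs (37.3 and 12.95 CPM). Of 26 further S-phase genes 4, and of 40 further G2/M genes 11, reached a mean of 20 CPM in these cells. How much of these counts is free RNA in the droplets was not tested. The inhibitor Cdkn1a, which encodes p21 and holds cells in G1, was at 842 CPM (95% Poisson interval 784 to 902) in fl/fl and 867 CPM (808 to 929) in cKO. In chemokine-high cells it was at 838 and 1226 CPM.

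A minority of the chemokine-low cells held little or no Malat1. Malat1, a long noncoding RNA retained in the nucleus and abundant in most cell types, was missing from 7 of 127 fl/fl and 18 of 106 cKO cells. Cells with under 0.1% of their UMIs in Malat1 numbered 8 of 127 (6.30%) in fl/fl and 20 of 106 (18.9%) in cKO. Only 1 of the 233 cells lay between 0.05% and 0.2%, and the median was 0.999% in fl/fl and 1.18% in cKO. Among middle cells such cells were 0 of 175 and 1 of 135, and among chemokine-high cells 0 of 91 and 2 of 142. A floor of 3 cells is 1.71% and 3.30% of these fl/fl classes. Among cells with a cycle-gene UMI, 107 of 1835 (5.83%) and 184 of 1395 (13.2%) were under 0.1% Malat1. The limit of 0.1% was set after the values were seen. Among chemokine-low cells at or above it, 6 of 119 in fl/fl and 4 of 86 in cKO had no UMI of the 6 rule genes.

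These low-Malat1 cells had a profile of their own within the group. Their median gene number was 2034.5 in fl/fl and 1622 in cKO, against 2502 and 3033.5 in the rest, and ribosomal protein genes took 20.4% and 20.9% of UMIs against 13.2% and 12.5%. Mitochondrial UMIs were at 2.45% against 2.51% in fl/fl and at 3.599% against 2.24% in cKO. Egr1, Atf3 and Jun, which are transcribed within minutes of a stimulus, gave 0, 0 and 1 UMIs in the 8 fl/fl cells and 1, 0 and 2 in the 20 cKO cells. In the other chemokine-low cells Jun was at 1370 CPM in fl/fl and 1615 in cKO. The nuclear RNA Neat1 gave 1 and 0 UMIs, against 684 and 573 CPM in the rest. Tmsb4x, which buffers free actin, was still detected, at 72312 CPM in fl/fl and 52519 in cKO, against 31992 and 26252 CPM in the rest. The profile was not particular to chemokine-low cells. Low-Malat1 cells with a cycle-gene UMI had medians of 2188 genes in fl/fl and 2084.5 in cKO. Ribosomal protein genes took 20.1% of their UMIs in each library, and immediate early genes 0.0447% and 0.0391%. No cause for the low-Malat1 cells was tested. The list results that moved most with those among chemokine-low cells are given with and without them.

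**Figure D2:**
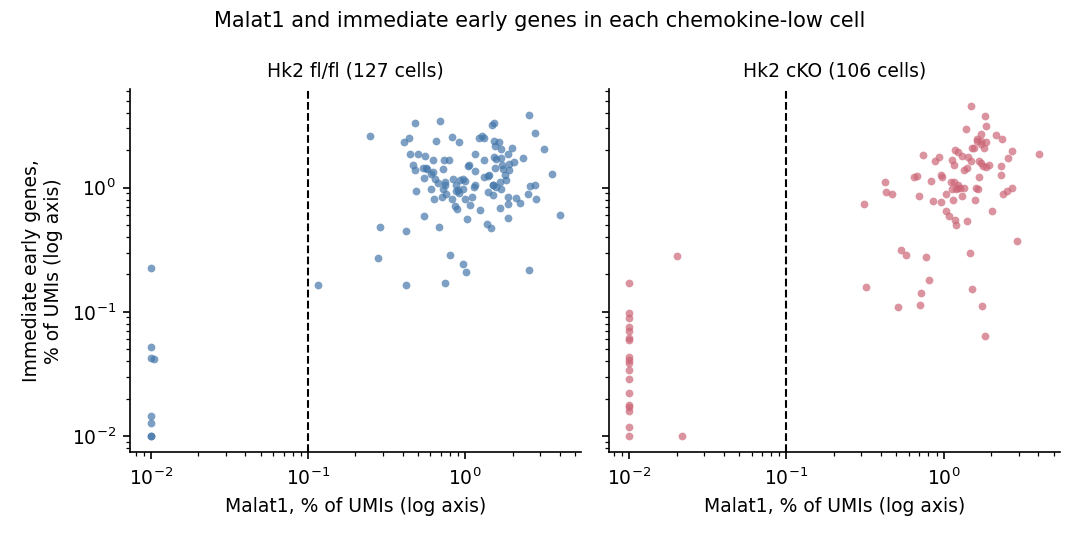
Each point is 1 chemokine-low cell (127 fl/fl, 106 cKO), with Malat1 (x axis, percent of UMIs, log scale) against the 28 AP-1 and immediate early genes together (y axis, percent of UMIs, log scale), and values under 0.01% drawn at 0.01. The 8 fl/fl and 20 cKO cells left of the dashed line at 0.1% Malat1 were below 0.25% immediate early gene UMIs in 8 and 19 cells, with medians of 0.0282% and 0.0399% against 1.17% and 1.13% in the cells to its right.

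The chemokine-low cells were next set against chemokine-high cells of the same library. The rule chose both on 6 genes of this contrast, so every value in it is a description. Of 5671 genes that averaged 20 CPM or more, leaving out the rule's genes, 170 were lower in chemokine-low cells by at least 1.5-fold in both libraries (3% of those measured) and 68 were higher (1.2%). The median gene was 0.06 higher on the log2 scale in fl/fl and 0.07 higher in cKO. Under TMM scaling, which moved the median of the cKO contrast by -0.14 on the log2 scale, the counts were 216 lower and 34 higher. Without the low-Malat1 cells they were 138 lower and 102 higher. All log2 ratios were taken after adding 1 CPM.

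Chemokines and cytokines that the rule did not use were lower as well. Cxcl10, an interferon-induced T-cell attractant, was at 112 CPM in fl/fl and 126 in cKO, against 1145 and 814 CPM in chemokine-high cells. Cxcl2, a neutrophil attractant, was at 405 and 69.1 CPM, against 1251 and 866 CPM, and was found in only 30 of 127 and 16 of 106 chemokine-low cells. Of 6 such chemokines measured 4 were lower in both libraries, with a median log2 ratio of -1.08 in fl/fl and -0.83 in cKO. Ccl6 was not: it was at 91.6 and 51.8 CPM in chemokine-low cells and at 54.7 and 47.6 CPM in chemokine-high cells. Among 10 other cytokine and inflammatory mediator genes 6 were lower by 1.5-fold in both libraries, with medians of -1.03 and -1.69. Il1a was at 457 and 380 CPM against 1267 and 1423 CPM, and Osm, which encodes the IL-6 family cytokine oncostatin M, at 34.1 and 25.9 CPM against 181 and 161 CPM. Il12b, a subunit of the T-cell-polarising cytokines IL-12 and IL-23, had 0 UMIs in chemokine-low cells, against 26.7 and 147 CPM in chemokine-high cells. A floor of 3 counts in the chemokine-low cells is 3.20 CPM in fl/fl and 3.24 in cKO.

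Several receptors that can lead to chemokine transcription were lower too. Cd14, the co-receptor for bacterial lipopolysaccharide, was at 488 and 355 CPM against 999 and 876 CPM, and Tlr2 at 407 and 330.3 CPM against 791 and 750.4 CPM. Both were lower without overlap of the intervals in each library. The anaphylatoxin receptor gene C5ar1 was at 125 and 126 CPM against 293 and 314 CPM, and C3ar1 at 229 and 219 CPM against 427 and 399.9 CPM. They were the 2 complement genes of 11 measured that were lower in both libraries, while 5 were higher in both and the list's medians were 0.02 and 0.20. Of 12 genes of Toll-like receptor signalling 3 passed 1.5-fold in both libraries, and the list's medians were -0.20 in fl/fl and 0.01 in cKO. Over the whole list 9 of 12 genes were lower in fl/fl and 6 of 12 in cKO.

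Feedback genes of NF-kB, which are transcribed by NF-kB and then restrain or extend it, were lower in 21 of 24 cases in both libraries, 13 of them by 1.5-fold, against 1305 of all 5671 genes lower in both (23%). The medians were -0.69 in fl/fl and -0.79 in cKO, and -0.59 and -0.65 without the low-Malat1 cells. Nfkbiz, a nuclear IkB protein that several cytokine genes need, was at 529 and 492 CPM against 1251 and 1093 CPM. Tnfaip3, which encodes the ubiquitin-editing inhibitor A20, was at 157 and 97.1 CPM against 246 and 224 CPM.

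Immediate early genes were lower but far from absent. Of 26 measured, 19 were lower in both libraries and 10 by 1.5-fold, with medians of -0.47 in fl/fl and -0.70 in cKO, and of -0.38 and -0.52 without the low-Malat1 cells. Egr3 was at 76.7 and 77.7 CPM against 289 and 386 CPM, and Nr4a1, an orphan nuclear receptor gene, at 85.2 and 51.8 CPM against 157 and 292 CPM. Egr1 was detected in 101 of 127 fl/fl and 78 of 106 cKO cells and stood at 876 and 806 CPM, against 932 and 780.4 CPM in chemokine-high cells. Eligible cells were also ordered by the rule genes in 10 equal bins, low-Malat1 cells included. In the lowest bin (40 and 38 cells) the summed immediate early genes stood at 9842 CPM in fl/fl and 5239 in cKO. Bins 2 and 3 stood at 12106.5 and 13376 CPM in fl/fl and at 10636.5 and 15558 CPM in cKO. Bins 4 to 9 of cKO lay between 12485 and 16281 CPM without an even rise. The highest bin (26 and 51 cells) stood at 16232 and 16353 CPM. The single cells spread widely. The middle 50% of fl/fl cells held 0.775% to 1.67% of UMIs in these genes and the middle 50% of cKO cells 0.204% to 1.63%.

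The genes furthest below their chemokine-high level included several that the lists did not hold. Slc7a11, the cystine importer that feeds glutathione synthesis, was at 26.6 CPM in fl/fl and 15.1 in cKO, against 289 and 193 CPM. Edn1, the precursor of the vasoconstrictor endothelin-1, was at 37.3 and 22.7 CPM against 325 and 303 CPM. Rcan1, a calcineurin inhibitor, was at 12.8 and 16.2 CPM against 114 and 295 CPM. The JAK-STAT inhibitor Socs3 was at 131 and 121 CPM against 432 and 413 CPM. Above their chemokine-high level were Inka1 at 70.3 and 70.2 CPM against 33.7 and 31.7 CPM, Txnip, a glucose-responsive regulator of thioredoxin, at 202 and 199 CPM against 130.5 and 121 CPM, and the Kruppel-like repressor Klf3 at 92.7 and 88.5 CPM against 54.7 and 48.7 CPM.

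Most energy metabolism genes were higher in chemokine-low cells when all cells were summed, by small ratios. Of 65 nuclear genes of the respiratory chain 50 were higher in chemokine-low cells of both libraries, against 2178 of all 5671 (38.4%), but 0 passed 1.5-fold and the medians were 0.25 in fl/fl and 0.11 in cKO. Without the low-Malat1 cells 20 of the 65 were higher in both and the medians were 0.17 and -0.02. The 17 glycolysis genes had medians of 0.38 and 0.14, and 0.30 and 0.01 without those cells. Of the 17, 11 were higher in both libraries, and 6 without those cells. Of 22 TCA cycle genes 14 were higher in both, with medians of 0.23 and 0.17. Without those cells 14 were again higher in both, with medians of 0.13 and 0.11. In both lists 0 passed 1.5-fold in both libraries. Gapdh was at 1953 and 1985 CPM against 1444 and 1614 CPM. The glucose transporter gene Slc2a1 was at 36.2 and 50.7 CPM against 53.3 and 62.8 CPM. The 33 homeostatic microglial genes had medians of 0.06 and 0.15, near those of all genes, and 18 of them were higher in both libraries.

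**Figure D3:**
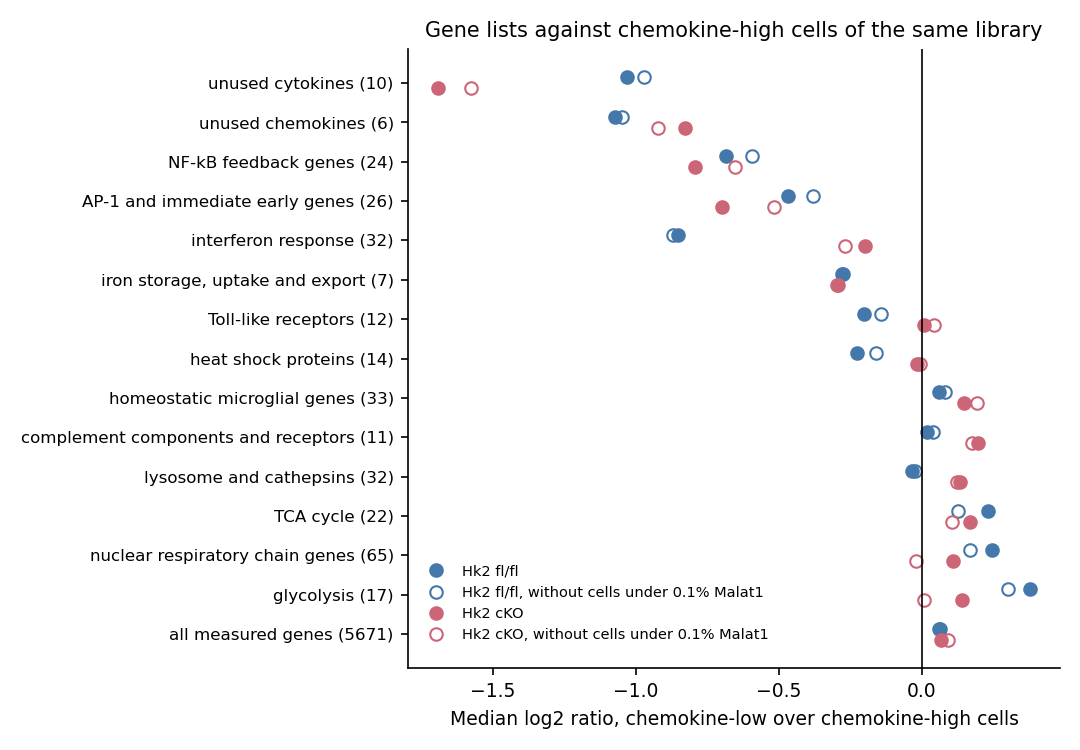
Median log2 ratio of chemokine-low over chemokine-high cells of the same library (x axis) for gene lists (y axis, genes measured in brackets), with fl/fl in blue and cKO in red, filled for all cells and open without cells under 0.1% Malat1. Cytokines, chemokines, NF-kB and immediate early genes lie left of 0 in both libraries, while the respiratory chain median of cKO moves from 0.11 to -0.02 when the low-Malat1 cells are left out.

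The genotypes were then compared within the chemokine-low cells, a contrast that the rule did not use. Hk2, the deleted gene (ENSMUSG00000000628, GRCm38, chromosome 6, 82725025 to 82774454, minus strand), had 210 UMIs in the 127 fl/fl cells and 69 in the 106 cKO cells. This is 224 CPM (194 to 256) and 74.5 CPM (57.9 to 94.3), a log2 ratio of -1.57, and the intervals do not overlap. A UMI was found in 81 of 127 and 41 of 106 cells, and after thinning in 42.6% (33.4 to 52.2) and 19.0% (12.0 to 27.9). How much of the cKO share is free RNA was not tested. The ratio was -1.45 in middle, -1.80 in chemokine-high and -1.96 in cycle-gene-positive cells. The 3' counts may lie outside the floxed exons, so the remaining UMIs do not show functional Hk2. Of the other hexokinases, Hk1 had 8 and 9 UMIs, and Hk3 40 and 43 UMIs. Cx3cr1, the locus that carries the Cre, was at 1538 CPM (1459.9 to 1619.7) in fl/fl and 874 (815 to 937) in cKO.

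Over 5730 genes that averaged 20 CPM or more in chemokine-low cells, 324 were at least 1.5-fold higher in cKO (5.65%) and 287 lower (5.01%). The Poisson intervals of the 2 libraries lay apart for 169 higher (2.95%) and 174 lower genes (3.04%). Without the low-Malat1 cells 431 genes were at least 1.5-fold higher and 295 lower. The median gene had a log2 ratio of 0.00, with 2866 genes higher (50%) and 2864 lower (50%). In counts simulated with the same totals and counting error only, 6.08% of unchanged genes passed 1.5-fold in 1 direction or the other. Counts for lists below are to be read against these shares.

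Interferon-response genes had the highest median of the 31 lists. Of 28 measured, 27 were higher in cKO, 23 of them by at least 1.5-fold, and 20 had intervals apart. The median log2 ratio was 0.96. Isg15, a ubiquitin-like modifier, had 7 UMIs in fl/fl and 72 in cKO, 7.46 CPM (3.00 to 15.4) and 77.7 CPM (60.8 to 97.9), in 7 of 127 and 38 of 106 cells. Ifit3, an antiviral RNA-binding scaffold, was at 9.59 and 41.0 CPM in 6 and 24 cells. Among the abundant members, Ifi27l2a was at 1183 CPM (1115 to 1255) and 2342 CPM (2245 to 2443). Bst2, the virus-tethering protein tetherin, was at 257 and 642 CPM, and Ifitm3, which blocks viral fusion, at 219 and 524 CPM. Gbp3, a guanylate-binding protein gene, was the exception at 27.7 and 14.03 CPM with overlapping intervals.

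The difference was spread over many cells. The median cell gave 0.216% of its UMIs to the interferon list in fl/fl and 0.481% in cKO, and the first quartile of cKO cells (0.313%) was above the fl/fl median. The middle 50% of fl/fl cells spanned 0.149% to 0.344%, and the highest single cells reached 1.36% and 1.77%. Ifitm3 was detected in 30.4% (22.2 to 39.7) of thinned fl/fl cells and 72.4% (62.8 to 80.7) of thinned cKO cells. Isg15 was detected in 2.61% (0.541 to 7.43) and 17.1% (10.5 to 25.7) of thinned cells. Its fl/fl share rests on 3 of 115 cells, and how much of it is free RNA was not tested. Leaving out the top cell of each gene gave a median of 1.10, and leaving out the low-Malat1 cells 0.94, with 27 of 28 genes higher. The low-Malat1 cKO cells themselves held a median of 0.752% of UMIs in the list, with Bst2 at 1361 CPM and Ifitm3 at 1277 CPM. Without the low-Malat1 cells Bst2 was at 257 CPM in fl/fl and 536 in cKO. Ifitm3 was then at 214 and 412 CPM, so both differences were smaller than in all cells.

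In summed counts most interferon genes were lower in chemokine-low than in chemokine-high cells of both libraries, by more in fl/fl. The median ratio over 32 genes was -0.85 in fl/fl and -0.20 in cKO. Of the 32 genes 30 were lower in fl/fl, 22 in cKO and 21 in both. Over all 5671 genes 23% were lower in both. Without the low-Malat1 cells the medians were -0.87 and -0.27. Isg15 was at 7.46 CPM in chemokine-low, 24.997 CPM in middle and 70.2 CPM in chemokine-high fl/fl cells, and at 77.7, 89.2 and 94.0 CPM in the same classes of cKO. Ifit3 followed 9.59, 37.5 and 101 CPM in fl/fl and 41.0, 71.5 and 49.9 CPM in cKO. The genotype ratio of the list was 0.96 in chemokine-low, 1.04 in middle, 0.35 in chemokine-high and 0.93 in cycle-gene-positive cells. These ratios came from counts summed over cells. The median cell gave 0.216%, 0.260%, 0.273% and 0.296% of its UMIs to the list in the same classes of fl/fl. In cKO it gave 0.481%, 0.569%, 0.594% and 0.656%, so per cell the chemokine-high class did not stand out. The differences between classes and between libraries were not tested.

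**Figure D4:**
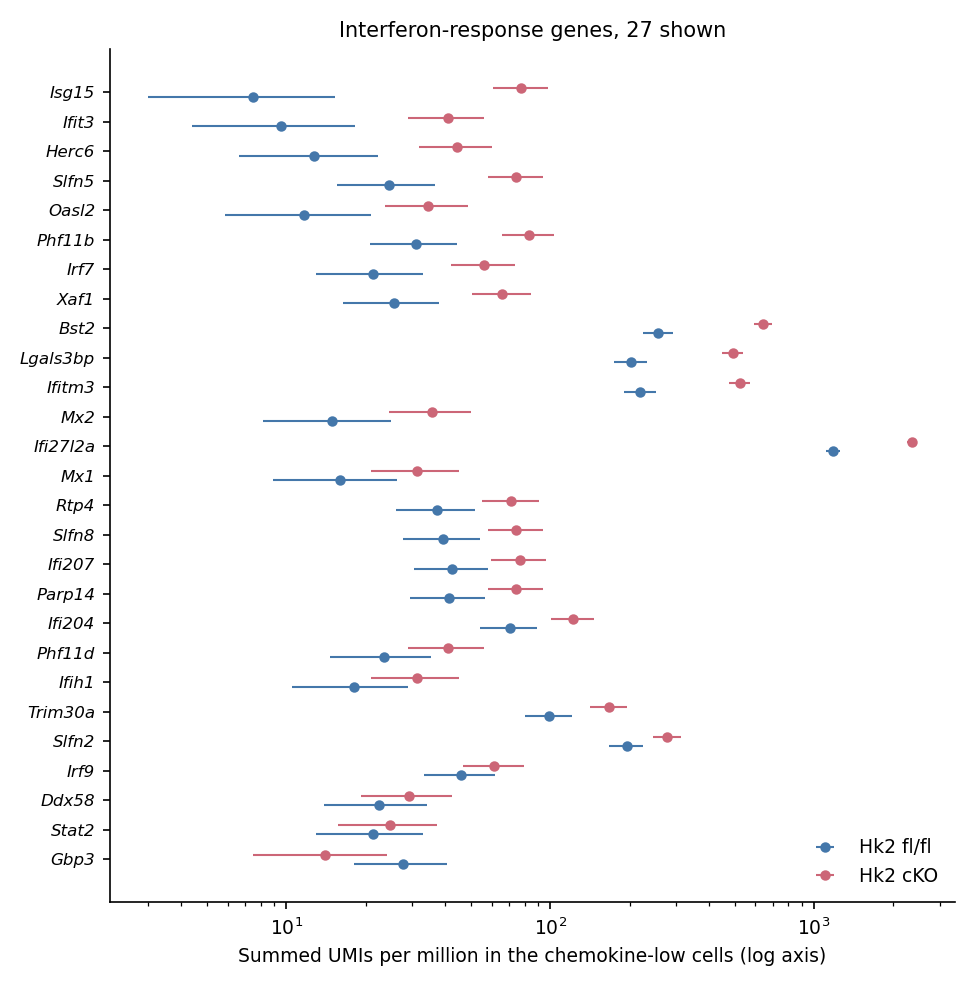
Summed CPM (x axis, log scale) of 27 of the 28 measured interferon-response genes (y axis, ordered by ratio) in chemokine-low cells of the fl/fl (blue) and cKO (red) libraries, with exact 95% Poisson intervals as bars. The cKO point lies right of the fl/fl point for each gene plotted except Gbp3 at the bottom.

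The promoters of 4 of these genes are shown because the genes differed in the same direction and interferon signalling is known to act through a shared promoter sequence, the interferon-stimulated response element. The sequences are RefSeq windows on GRCm38.p6, from 250 bases before to 50 bases after the annotated start, written 5′ to 3′ on the gene's strand. Capitals mark matches to GAAANNGAAA or its reverse complement TTTCNNTTTC, and overlapping matches run together. The windows are Isg15 at chr4:156200769-156201068 (minus strand), Ifit3 at chr19:34583279-34583578 (plus), Bst2 at chr8:71537423-71537722 (minus) and Slfn5, a Schlafen family gene, at chr11:82951852-82952151 (plus).
Isg15: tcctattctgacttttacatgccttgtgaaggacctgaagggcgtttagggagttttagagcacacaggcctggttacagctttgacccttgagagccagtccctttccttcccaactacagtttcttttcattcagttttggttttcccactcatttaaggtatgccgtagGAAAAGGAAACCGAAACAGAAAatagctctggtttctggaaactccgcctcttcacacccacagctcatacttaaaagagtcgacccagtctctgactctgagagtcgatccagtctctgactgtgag
Ifit3: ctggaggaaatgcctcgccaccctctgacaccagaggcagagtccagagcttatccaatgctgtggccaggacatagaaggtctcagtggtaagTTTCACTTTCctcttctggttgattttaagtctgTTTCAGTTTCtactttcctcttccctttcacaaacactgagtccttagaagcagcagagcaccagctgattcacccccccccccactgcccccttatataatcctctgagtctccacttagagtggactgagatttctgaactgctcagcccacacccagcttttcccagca
Bst2: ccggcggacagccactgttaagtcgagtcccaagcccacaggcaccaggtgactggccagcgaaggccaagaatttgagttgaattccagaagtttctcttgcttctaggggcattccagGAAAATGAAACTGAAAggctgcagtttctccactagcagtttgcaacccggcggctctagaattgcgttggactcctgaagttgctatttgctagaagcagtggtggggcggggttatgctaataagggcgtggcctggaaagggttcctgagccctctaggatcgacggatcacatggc
Slfn5: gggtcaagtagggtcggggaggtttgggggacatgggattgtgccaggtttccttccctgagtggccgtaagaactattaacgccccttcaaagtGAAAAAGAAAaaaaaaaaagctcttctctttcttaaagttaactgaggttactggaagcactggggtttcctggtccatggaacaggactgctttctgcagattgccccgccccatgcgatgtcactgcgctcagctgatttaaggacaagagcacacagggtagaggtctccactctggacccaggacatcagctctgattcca
Isg15 held 3 overlapping matches, the first starting 78 bases before the start site, Ifit3 and Bst2 held 2 each, the first starting 156 and 130 bases before it, and Slfn5 held 1, starting 155 bases before it. Of 21 measured interferon genes with a RefSeq promoter, 13 held a match (61.9%), and so did 5 of 16 measured MHC class I genes. Over all 32851 promoters 3.44% held one, and over the 4541 measured genes with a promoter 187 (4.12%) did in at least 1 window. Within the interferon list the 13 genes with a match had a median genotype ratio of 0.90 and the 8 without 1.30. A match is a description of letters and not a binding site.

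MHC class I presentation, which shows intracellular peptides to CD8 T cells, was higher in cKO in 16 of 17 genes, 7 of them by 1.5-fold, with a median of 0.56. H2-K1, a heavy chain, was at 781 CPM (725 to 839) in fl/fl and 1295 (1223 to 1371) in cKO. The light chain B2m was at 2198 and 3271 CPM, and H2-D1 at 1128 and 1668 CPM. The nonclassical gene H2-T23 was at 138 and 284 CPM. Reads of these H2 genes can be shared with near-identical family members. The list's median was 0.46 in middle, 0.40 in chemokine-high and 0.46 in cycle-gene-positive cells.

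Complement and lysosomal genes were moderately higher. C1qa, C1qb and C1qc, the 3 chains of C1q, which tags synapses and debris for uptake, were at 6692, 7458 and 4904 CPM in fl/fl and at 9315, 9537 and 6862 CPM in cKO. Itgam, the complement receptor 3 subunit that the sort itself selects as CD11b, was at 515 and 710 CPM. Of 10 complement genes 8 were higher with a median of 0.30, against 0.09 in middle, 0.10 in chemokine-high and 0.09 in cycle-gene-positive cells. Of 32 lysosome genes 25 were higher, 9 with intervals apart, with a median of 0.16, and of 0.11 without the low-Malat1 cells. The protease genes Ctsd, Ctss and Ctsl were at 8796, 4576 and 933 CPM in fl/fl and 11227, 6023 and 1344 CPM in cKO, and progranulin (Grn) at 1627 and 2248 CPM.

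Most homeostatic genes differed by less than 1.5-fold between genotypes. Of 33, 28 were higher in cKO with a median of 0.12. The intervals lay apart for 7 higher genes and 1 lower gene. When each cell had equal weight 18 were higher, with a median of 0.02. Gpr34, a lysophospholipid receptor gene, was at 668 and 717 CPM. Csf1r, the receptor that microglia need to survive, was at 2017 CPM (1927 to 2109) and 1934 CPM (1846 to 2026).

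Most immediate early, NF-kB and Kruppel-like genes were lower in chemokine-low cells of cKO when all cells were summed. Of 23 immediate early genes 18 were lower, 7 with intervals apart, with a median of -0.28. Junb, an AP-1 subunit, was at 2094 CPM (2003 to 2189) in fl/fl and 1718 (1635 to 1805) in cKO, while its relative Jun was at 1286 and 1410 CPM. Btg2, an antiproliferative early gene, was at 701 and 525 CPM. Of 23 NF-kB feedback genes 19 were lower with a median of -0.18. Nfkbia, the IkB-alpha inhibitor, was at 1005 and 885 CPM, and Nfkbid, another nuclear IkB protein, was higher at 110 and 205 CPM. Klf2, which restrains inflammatory transcription in myeloid cells, was at 941 and 663 CPM, and 6 of 7 Kruppel-like genes were lower.

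The size of these differences moved with the low-Malat1 cells, which made up 18.9% of the cKO cells and 6.30% of the fl/fl cells. Without them 16 of 23 immediate early genes were lower with a median of -0.18, 18 of 23 NF-kB genes with a median of -0.13, and the Kruppel-like median was -0.16 in place of -0.27. The direction also depended on which cells were compared. At least 2 markers of another cell class were present in 54 of 127 fl/fl and 56 of 106 cKO cells. The markers with most UMIs in their class included Bsg, Csf3r, Cnp and Ighm, and why they were present was not tested. Without those cells the immediate early median was 0.07, the NF-kB median -0.04 and the median of the same 28 interferon genes 0.65, with 24 of them higher. In the cells with a UMI of the predicted gene Gm28438 and none of mt-Nd3 the immediate early median was 0.33 and the NF-kB median 0.51.

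That last split separates the libraries. Gm28438 without mt-Nd3 was found in 17 of 127 fl/fl and 83 of 106 cKO chemokine-low cells, mt-Nd3 without Gm28438 in 60 and 0, and neither in 50 and 23. The labels do not say what the 2 kinds of cells are, and the part of this difference in the genotype ratios was not tested. Within the Gm28438-alone cells 27 of the 28 interferon genes were higher with a median of 1.26, and the Hk2 ratio was -1.09.

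Actin and motility genes were lower in cKO in 19 of 20 cases, 9 with intervals apart, with a median of -0.18. Tmsb4x was at 34492 CPM in fl/fl and 29626 in cKO. Actg1 was at 2864 and 2174 CPM and the intermediate filament gene Vim at 408 and 234 CPM. The list's median was below 0 under each recalculation of the list ratios, between -0.34 and -0.09. The ferritin chains Fth1 and Ftl1, which store iron, were at 6812 and 6393 CPM in fl/fl and 5780 and 5483 CPM in cKO. The class medians of actin genes were -0.05 in middle, 0.06 in chemokine-high and -0.03 in cycle-gene-positive cells, and were not tested against each other.

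Some of the largest ratios came from 1 or a few cells of the fl/fl library. Chil3, a chitinase-like gene of monocytes and alveolar macrophages, had 167 UMIs in fl/fl and 3 in cKO, and 85.6% of the 167 were in 1 cell. H2-Eb1, an MHC class II chain, had 81 and 1 UMIs, with 97.5% in 1 cell, and Cd74, the class II chaperone, was at 374 and 101 CPM with 57.5% in 1 cell. Without the top cell of each library the Cd74 ratio went from -1.87 to -0.75. The 10 monocyte markers summed to 395 CPM in fl/fl and 93.9 in cKO, with all 10 and 7 of 10 detected. The 9 dendritic markers summed to 109 and 1.08 CPM, with 4 of 9 and 1 of 9 detected. At least 3 of these markers were present in 5 fl/fl and 0 cKO cells, and without those cells the interferon median was 0.99 and the actin median -0.17. Pericyte markers summed to 13.8 and 39.9 CPM, with 89.2% of the cKO sum in 1 cell, and neutrophil markers to 258 and 252 CPM, mainly Csf3r with 194 and 172 UMIs. Red blood cell markers were at 0 in both libraries.

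Cxcl2, found in a minority of cells, was also lower in cKO. It was at 405 CPM in 30 cells and 69.1 CPM in 16 cells, with 23.7% and 31.2% from the top cell, and its ratio of -2.53 compares with -0.66 in middle and -0.53 in chemokine-high cells. Ets2, a transcription factor gene of the ETS family, was found in more cells and was at 87.4 and 30.2 CPM in 46 and 24 cells. Ccl12, a CCR2 ligand that the rule did not use, went the other way at 438 CPM (397 to 482) in fl/fl and 685 (633 to 741) in cKO. Higher in cKO outside the interferon list were Baiap2, an adaptor of the actin cytoskeleton, at 25.6 and 76.6 CPM, Usp25, a deubiquitinase gene, at 33.0 and 78.8 CPM, and Tmx4, a thioredoxin-related membrane protein gene, at 62.9 and 136 CPM.

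Glycolysis genes differed little between genotypes when all cells were summed. Of 18 measured with Hk2 among them 11 were higher, with a median of 0.03. In Gm28438-alone cells 14 of the 18 were lower with a median of -0.60, and without the low-Malat1 cells 11 were lower with a median of -0.03. Gapdh was at 1953 CPM (1864 to 2044) in fl/fl and 1985 (1895 to 2078) in cKO, and Eno1 at 214 and 257 CPM. The 65 nuclear respiratory chain genes had a median of -0.05 with 45 lower, which turned to 0.10 when each cell had equal weight and to 0.05 after thinning. In Gm28438-alone cells 55 of the 65 were lower with a median of -0.41, and the median was -0.12 without cells with markers of another class and -0.11 without the low-Malat1 cells.

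**Figure D5:**
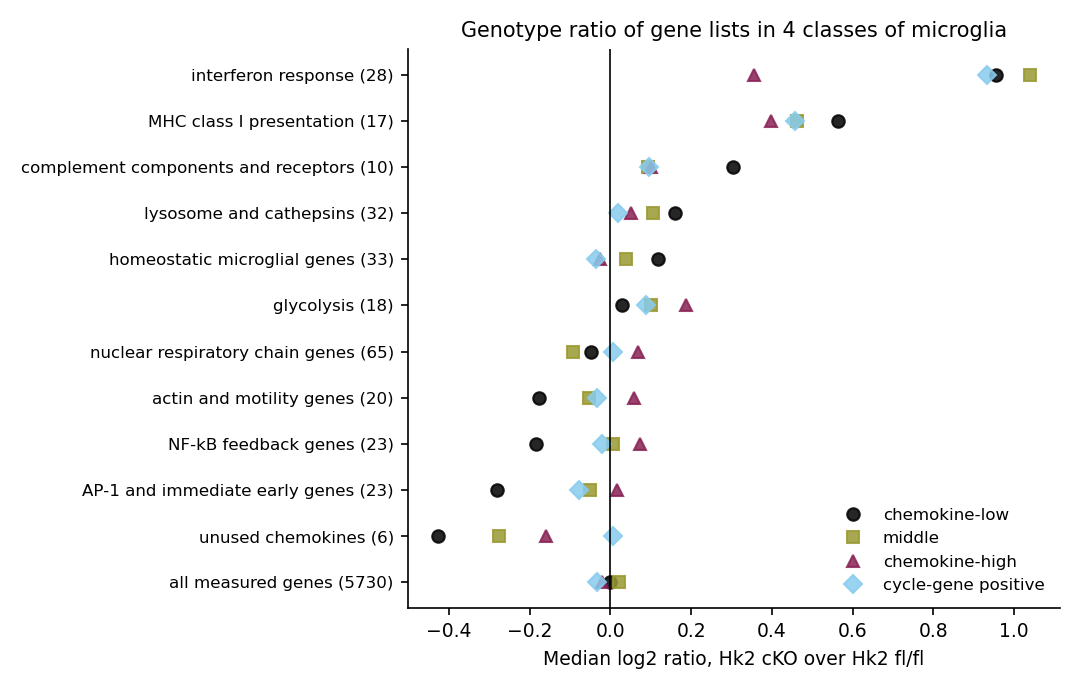
Median log2 ratio of cKO over fl/fl in summed counts (x axis) for gene lists (y axis, genes measured in brackets) in chemokine-low, middle, chemokine-high and cycle-gene-positive cells. Interferon and MHC class I genes lie right of 0 in all 4 classes, with interferon medians of 0.96, 1.04, 0.35 and 0.93, while the actin, NF-kB and immediate early medians of chemokine-low cells lie left of those of the other classes.

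Single genes varied unequally among the chemokine-low cells themselves. The Fano factor, the variance of the thinned counts divided by their mean, was above that of other genes of at least 50 CPM for Apoe, the lipid carrier raised in damage-associated microglia, in the smaller of its 2 library values (34.0 in fl/fl and 29.8 in cKO). Apoe was detected in 43 of 127 fl/fl and 52 of 106 cKO cells, and 1 cell held 19.6% and 32.4% of its UMIs. Its level was 816 CPM in fl/fl and 845 in cKO. Chemokine-high cells had 2016 CPM of Apoe in fl/fl and 693 CPM in cKO. Next in that order came Tmsb4x, Malat1, Ctsd, Cst3, Actb, Klf2, Cxcl2, Junb and Ccl12. The factor was not corrected for the mean, so abundant genes such as Tmsb4x can rank high in it. Of these genes Malat1 defined the low-Malat1 cells, and Klf2 gave 0 UMIs in those of fl/fl and 4 in those of cKO.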

How the data were processed

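RNA of sorted cells from 1 library per genotype was measured by droplet single-cell sequencing. The authors deposited raw UMI counts per gene and cell barcode, made with bcl2fastq and Cell Ranger 3.1.0 on GRCm38, per the submitters' processing notes. The labels name no separate animals.

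Members and gene lists were chosen with earlier results of these data known. Counts were summed over the cells of a class in each library, divided by the class total to give CPM, and compared as log2 ratios after adding 1 CPM. Genes were measured at a mean of at least 20 CPM, and where identifiers share a symbol the one with most counts was used. Intervals are exact Poisson for sums and Clopper-Pearson for shares, at 95%. A difference was counted when it passed 1.5-fold, and a floor is 3 counts. For shares of cells with a UMI, cells were thinned to 3000 UMIs, which left out 12 fl/fl and 1 cKO chemokine-low cells. No doublet caller was run.

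Genes were named by rule: Hk2, its paralogs and Cx3cr1, and the 12 highest and 12 lowest in each contrast at 50 CPM or more. The rule also took the 10 genes with the highest Fano factor. In each of the 31 lists it took the 4 largest ratios and the 2 most abundant. Egr1, Atf3, Neat1, Gbp3 and S100a8 fall outside it and were named after their values were seen. Values of some listed genes are counted in their lists but not reported here by name. The calculation was tested on simulated data. Python 3.11.15, numpy 2.4.6, scipy 1.17.1, pandas 2.3.3, matplotlib 3.10.9, R 4.3.3 and edgeR 4.0.16 (TMM factors only) were used.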

Additional observations from a re-analysis of the deposited data

Results flagged for a closer look

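Several values had opposite signs in 2 groups of cells. Each group is 1 library or a class of cells within it, and none of these differences was tested.

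The log2 ratio of cKO over fl/fl was positive in chemokine-low cells and negative in chemokine-high cells for Ifit3 (1.99 and -1.003) and Cst3 (0.12 and -0.19). It was negative in chemokine-low and positive in chemokine-high cells for the dendritic maturation marker Cd83 (-0.37 and 0.40), the early response gene Ier3 (-0.35 and 0.53), Tmsb4x (-0.22 and 0.13) and Actb (-0.093 and 0.06). The same held for the medians of the cytokine genes that the rule did not use (-0.24 and 0.17) and of the antioxidant genes (-0.12 and 0.18).

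The log2 ratio of chemokine-low over chemokine-high cells was negative in fl/fl and positive in cKO for Apoe (-1.30 and 0.29), Jun (-0.41 and 0.19), Ctss (-0.11 and 0.23), Cst3 (-0.12 and 0.18) and C1qb (-0.075 and 0.17). For Cd74 it was 0.64 in fl/fl and -1.10 in cKO, and 57.5% of the fl/fl UMIs of Cd74 in chemokine-low cells were in 1 cell.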

How the results depend on the processing

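The Hk2 ratio, the interferon median and the medians of unused chemokines kept their direction under 14 other settings or under 3 further ones chosen after seeing the data (without the top cell of each gene, without cells holding 3 monocyte or dendritic markers, and without cells under 0.1% Malat1). Excluding cells with a UMI of any of 12 further cycle genes was not run, since it left 2 cells. The Hk2 ratio ranged from -1.81 to -1.09 (Gm28438-alone cells), the interferon median from 0.80 (without cells with markers of another class) to 1.41 (lowest 20%) over the genes that reached 20 CPM under each setting, and the medians of unused chemokines against chemokine-high cells from -1.63 to -0.53 in fl/fl and from -1.15 to -0.56 in cKO. The share of eligible cells was 21.6% in fl/fl and 18.3% in cKO with the lowest 20%, and 42.0% and 37.9% with the lowest 40%, by construction.

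Counts of genes past 1.5-fold moved most. Against 324 genes higher in cKO, the count was 678 at a mean of at least 10 CPM, 91 at 50 CPM, 668 in thinned cells, 127 with cells chosen after thinning, 551 without cells with markers of another class and 1163 in Gm28438-alone cells. Against 287 lower in cKO, the same settings gave 604, 81, 819, 86, 730 and 1000, the mean of per-cell CPM gave 501 and the lowest 20% gave 573. Against 68 genes higher than in chemokine-high cells, the count was 34 with TMM scaling, 109 without mitochondrial and ribosomal protein genes, 36 with 5 CPM added, 171 at 10 CPM, 16 at 50 CPM, 201 in thinned cells, 45 with the lowest 40%, 16 with cells chosen after thinning, 151 without cells with markers of another class and 130 in Gm28438-alone cells. Against 170 lower, it was 112 at 50 CPM, 263 in thinned cells, 260 with the lowest 20% and 271 in Gm28438-alone cells. Lower filters and fewer cells or UMIs let more low-count genes past the fold by construction. For the other changes the cause was not tested. The genotype medians of some lists changed sign: immediate early genes from -0.28 to 0.07 without cells with markers of another class and 0.33 in Gm28438-alone cells, NF-kB genes from -0.18 to 0.51 in Gm28438-alone cells, and respiratory chain genes from -0.05 to 0.10 with the mean of per-cell CPM. No paired analysis was possible because each genotype is 1 library. At these depths the floor of 3 counts in the chemokine-low cells is 3.20 CPM in fl/fl and 3.24 in cKO. A gene with no UMI there may still be present at a low level.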
